A study of Glycine max with 32 samples.

Results

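The leaf transcriptome of the soybean line VPZ-34A was compared with that of WT at the vegetative stage V4–V5 under elevated CO2 (e[CO2]), in 8 of the 32 libraries of the series. The members were the libraries that the labels place in the 4 elevated rings at this stage, 1 of each line per ring (rings 3, 5, 6 and 8), and the lines were compared within rings. Of 52872 soybean genes in the count table, 33686 passed the filter on low counts and were tested, while the 3 transgenes were used only to check the labels.

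VPZ-34A carries 3 *Arabidopsis thaliana* genes of photoprotection. Violaxanthin de-epoxidase (VDE) converts violaxanthin to zeaxanthin when light is in excess, zeaxanthin epoxidase (ZEP) converts it back in the shade, and photosystem II subunit S (PsbS) senses the acidity of the thylakoid lumen. Together they set how fast leaves switch on and off non-photochemical quenching, the harmless release of absorbed light as heat.

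Both lines were *Glycine max* cv. Maverick. VPZ-34A was grown from T5 seed of 1 transgenic line overexpressing *AtVDE*, *AtPsbS* and *AtZEP*, and WT was non-transgenic seed of the same cultivar, so that an effect of the transgenes and of that 1 line cannot be told apart. Plants grew in the field, in free-air rings kept at 600 µmol mol−1 (e[CO2]) or at the ambient 410 µmol mol−1 (a[CO2]), with 1 sub-plot per line in each ring. Per the paper, each field block held 1 elevated plot and 1 ambient plot as a pair. The sample titles do not name these pairs, and the pairs did not enter the fits. A sample was made of disks of the youngest fully expanded leaf pooled from 3 plants of a plot and taken in the morning, and 8 libraries from the ambient rings (1, 2, 4 and 7) and 8 from the same elevated rings at the later stage R5–R6 (labelled R6) serve for comparison below.

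Total estimated counts per library ranged from 20813995 to 55755989 in VPZ-34A and from 16870301 to 24318039 in WT, and the deepest library was VPZ-34A of ring 5. The 3 transgenes took between 0.426% and 0.479% of the counts of the 4 VPZ-34A libraries. *AtPsbS* (AT1G44575) stood at 2366 CPM (counts scaled to the effective library size) or more in each of them and at most 0.276 CPM in WT, as the labels say. Homologues of *ELIP1*, whose early light-induced proteins belong to the chlorophyll-binding family of leaves, were abundant. *Glyma.20G150600* stood between 1761 and 3794 CPM and *Glyma.10G243800* between 900.5 and 1943 CPM over the 8 libraries. They were chosen after their values were seen, and no marker of another tissue was set beside them. Their level is thus no test of the labelled tissue. Other leaf markers could not be named from the annotation used here.

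Soybean genes differed little between the lines at e[CO2]. The median log2 fold change (log2FC, VPZ-34A over WT) was 0.00 over all genes tested, and 50.5% of the genes stood above 0. The median size of a log2FC was 0.11 in either direction, and the 95% confidence interval lay within ±1 for 28876 genes (85.7%). By edgeR's quasi-likelihood test with the ring as a block and Benjamini-Hochberg adjustment over all genes, 4 genes were called at an adjusted p under 0.05 (0.0119% of those tested). All 4 were higher in VPZ-34A, by more than 1 on the log2 scale. Before adjustment, 537 genes passed p under 0.05 as higher (1.59%) and 332 as lower (0.986%), together 869 genes (2.58%). The rings are separate plots of 1 field and entered as a block, so that the p-values rest on how the line difference varied between rings in 1 season. That spread was estimated from the ambient and elevated rings together. In bulk leaf RNA, fewer cells of a type and less RNA per cell cannot be told apart.

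The 4 called genes are homologues of a dehydration-response membrane protein, a glycerol-3-phosphate dehydrogenase, a protein of unknown function and a MAP kinase kinase kinase. The first 3 were close to absent from WT, and the fourth was present in both lines. Their levels in each ring are shown in the plot of CPM by ring.

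**Figure D1:**
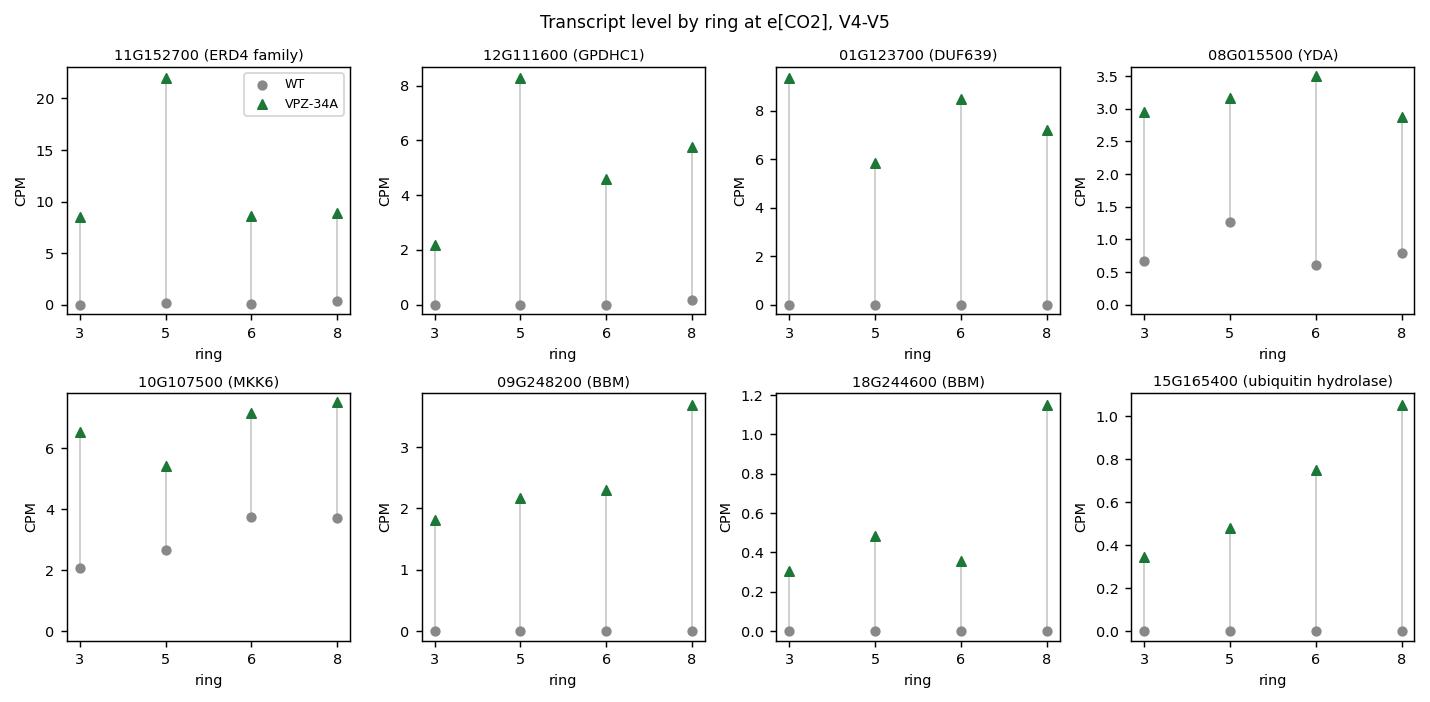
CPM (y axis, linear) of 8 soybean genes in the 4 e[CO2] rings (x axis) at V4–V5, with WT as grey circles, VPZ-34A as green triangles and a line joining the libraries of a ring. The first 4 panels are the called genes and the other 4 are genes that missed the threshold; in each panel every VPZ-34A library lies above every WT library.

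*Glyma.11G152700* (chromosome 11) is a homologue of an Arabidopsis gene of the ERD4 family, membrane proteins first described from transcripts that dehydration induces early. In VPZ-34A it was at 8.52, 22, 8.62 and 8.92 CPM in rings 3, 5, 6 and 8. In WT of the same rings it was at 0, 0.165, 0.0508 and 0.372 CPM, or 13 counts in all. The lines did not overlap, and VPZ-34A of ring 5 was the highest library. The mean was 12 ± 6.63 CPM in VPZ-34A and 0.147 ± 0.165 CPM in WT (SD, n = 4), a ratio of 81.7. The log2FC was 6.2 ± 0.57 (SE), with an adjusted p of 0.00197.

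*Glyma.12G111600* (chromosome 12) is a homologue of *GPDHC1*, a cytosolic glycerol-3-phosphate dehydrogenase that links glycolytic carbon to the redox state of NADH in Arabidopsis. VPZ-34A held 2.16, 8.27, 4.6 and 5.75 CPM in rings 3, 5, 6 and 8. WT held 0 CPM in rings 3, 5 and 6 and 0.165 CPM, or 4 counts, in ring 8. Every VPZ-34A library held at least 50 counts of a transcript that WT showed in 1 ring only. The log2FC was 6.64 ± 0.55 (SE), with an adjusted p of 0.00851. The call was lost without ring 6 (adjusted p = 0.0509) and without ring 8 (adjusted p = 0.0938, log2FC 10.00). All WT counts came from ring 8, so that the fitted log2FC is no firm measure of the size of the difference.

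*Glyma.01G123700* (chromosome 1) encodes a homologue of a plant protein with the uncharacterised domain DUF639. It was at 9.35, 5.85, 8.49 and 7.19 CPM in VPZ-34A and had no count in any of the 4 WT libraries. The lowest VPZ-34A library had 150 counts. Against a floor of 3 counts over the 4 WT libraries (0.0362 CPM), the mean of 7.72 ± 1.53 CPM (SD, n = 4) was at least 213-fold higher. The adjusted p was 0.00851, and the fitted log2FC of a gene without WT counts is no measure of its size.

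*Glyma.08G015500* (chromosome 8) is a homologue of *YDA* (*MAPKKK4*), a MAP kinase kinase kinase that in Arabidopsis acts in stomatal patterning and in the first divisions of the embryo. Levels were 2.94, 3.16, 3.49 and 2.88 CPM in VPZ-34A and 0.672, 1.27, 0.609 and 0.785 CPM in WT. VPZ-34A varied little between rings, and the ratio within a ring ran from 2.49 in ring 5 to 5.74 in ring 6. The log2FC was 1.92 ± 0.25 (SE; 95% interval 1.37 to 2.48), with an adjusted p of 0.0424. This call was the least firm of the 4: it was lost without each of the rings in turn (adjusted p from 0.05004 to 0.346, log2FC from 1.75 to 2.16), and by limma-voom (adjusted p = 0.0689) and in the elevated libraries alone with the ring as block (adjusted p = 0.1999).

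A homologue of another MAP kinase cascade gene lay just outside the threshold. *Glyma.10G107500* is a homologue of *MKK6* (*ANQ1*), a MAP kinase kinase needed in Arabidopsis for building the cell plate at cytokinesis. It was at 6.53, 5.42, 7.16 and 7.53 CPM in VPZ-34A and at 2.07, 2.65, 3.76 and 3.72 CPM in WT. The lines did not overlap, the ratio of the means was 2.19, and the log2FC was 1.15 ± 0.16 (SE) with an adjusted p of 0.0550. Another, the *MAPKKK14* homologue *Glyma.14G195300*, had a log2FC of -1.03 (95% interval -1.70 to -0.37) and overlapped between the lines (adjusted p = 1.0). Both genes were singled out after their values were seen, and they are no test of the cascade.

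Genes near silence in WT were then sought directly, because a filter on low counts can hide them. With at least 5 counts in each VPZ-34A library and at most 3 counts over the 4 WT libraries, 5 of 52872 soybean genes qualified. In the opposite direction, with the lines exchanged, 0 genes qualified. The counts were not scaled for depth, and the median total was 22982857 in VPZ-34A and 19496564 in WT. In ring 5 the totals were 55755989 and 16870301. Depth thus favours genes present in VPZ-34A, and the 5 and 0 are not an even comparison. This rule and its members were set after the values were seen, and it picks the lowest WT levels by construction. Besides *Glyma.01G123700*, the 5 were a pair of *BBM* homologues, a ubiquitin hydrolase homologue and *Glyma.07G209700*.

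*BABY BOOM* (*BBM*) encodes an AP2-type transcription factor that promotes embryo-like growth and cell division when expressed in Arabidopsis. Its homologue *Glyma.09G248200* (chromosome 9) was at 1.82, 2.16, 2.30 and 3.69 CPM in VPZ-34A and had 0 counts in all 4 WT libraries, at least 68.9-fold higher. Its adjusted p was 0.0725, so that it was not called. Without the ring as a replicate block it was called (adjusted p = 0.00231), as it was by limma-voom (adjusted p = 9.64e-05) and DESeq2 (adjusted p = 9.93e-10) with the block. The second homologue, *Glyma.18G244600* (chromosome 18), was at 0.303, 0.482, 0.354 and 1.15 CPM in VPZ-34A, again with 0 counts in WT, at least 15.8-fold higher (adjusted p = 1.0). It was called in 2 of the 10 processing alternatives that kept it. These were limma-voom (adjusted p = 0.0169) and DESeq2 (adjusted p = 0.00811), both with the block. The pair kept the same order in each library: *Glyma.09G248200* was 3.21 to 6.5 times as high in CPM as *Glyma.18G244600*. Both genes had values that were not whole in some libraries (3 and 2 of 8), which shows reads shared with other loci, and the share of a read given to each copy is uncertain. These are ratios of CPM and are not scaled by gene length.

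*Glyma.15G165400*, a homologue of a ubiquitin carboxyl-terminal hydrolase, was at 0.346, 0.482, 0.752 and 1.05 CPM in VPZ-34A with 0 counts in WT, at least 18.2-fold higher (adjusted p = 0.270). It was called in 3 of the 10 processing alternatives that kept it: without the block, by limma-voom and by DESeq2. Enzymes of this family remove ubiquitin from proteins. *Glyma.07G209700*, to which the annotation used gives no name, had 5, 5, 7 and 10 counts in VPZ-34A and 0 in WT, and was too low for the filter. At such counts the counting error alone is wide, while *Glyma.15G165400* had 8, 29, 17 and 22 counts in VPZ-34A of rings 3, 5, 6 and 8.

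Below the called genes, 28 genes had an unadjusted p under 0.001 (0.0831% of those tested), among them the 4 called, and 25 of these were higher in VPZ-34A. They were chosen by this comparison, so that their values at e[CO2] are given as a description. The annotation used names a homologue or entry for 18 of the 28. It covers 835 genes that the study listed from these same libraries, and is not an even sample of the genome.

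Among the 28 were 2 pairs of direct neighbours by gene ID. The first lay on chromosome 14. *Glyma.14G136300* is a homologue of *HY2*, the enzyme that makes the light-absorbing chromophore of phytochrome, and *Glyma.14G136351* is a homologue of a translation-associated protein, TMA7. The *HY2* homologue was at 15.6, 17.1, 17.7 and 11.9 CPM in VPZ-34A and at 1.34, 0, 3.65 and 3.18 CPM in WT. Its neighbour was at 14, 22.4, 16.6 and 22.8 CPM in VPZ-34A and at 1.34, 0.276, 3.50 and 5.82 CPM in WT. Neither overlapped between the lines, and the log2FC was 3.10 ± 0.56 (SE) and 3.02 ± 0.54 (SE), with adjusted p of 0.407 and 0.381. The library kit marks strand, but whether the counting used it is not stated, so that reads of overlapping neighbours cannot be told apart.

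The other pair lay on chromosome 3. *Glyma.03G065400*, a homologue of the Mpv17/PMP22 family of peroxisomal membrane proteins, was at 3.25, 4.57, 3.98 and 2.88 CPM in VPZ-34A and 0.432, 0.662, 1.32 and 1.36 CPM in WT. *Glyma.03G065300*, with no name, had a log2FC of 2.01 beside 2.0 for its neighbour (adjusted p of 1.0 and 0.835). *Glyma.03G065500*, next in order, followed at a log2FC of 1.78 (adjusted p = 1.0). Of the 10 genes on either side of *Glyma.11G152700*, *Glyma.12G111600*, *Glyma.01G123700* and *Glyma.08G015500*, 14, 13, 11 and 16 were tested. Of these, 1, 0, 1 and 0 passed an unadjusted p under 0.05 (2.58% of all genes tested), and none passed 0.001.

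*Glyma.07G081500*, also among the 28, is a homologue of *SAP18*, a subunit that binds the SIN3 histone deacetylase complex. It was at 8.48, 4.19, 7.87 and 5.66 CPM in VPZ-34A and at 1.34, 4.14, 1.88 and 1.11 CPM in WT, so that the lines touched in ring 5 and were apart in the other rings (log2FC 1.72 ± 0.38 (SE), adjusted p = 1.0). *Glyma.06G084900*, a homologue of the chromatin remodeller *CHR11*, was at 0.708 to 1.01 CPM in VPZ-34A and 0.144 to 0.413 CPM in WT (log2FC 1.59 ± 0.35 (SE), adjusted p = 1.0).

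Only 3 of the 28 were lower in VPZ-34A. *Glyma.04G013100* is a homologue of *AGB1*, the beta subunit of the Arabidopsis heterotrimeric G protein, which acts in stomatal, hormone and defence signalling. It was at 1.73, 1.63, 1.59 and 1.15 CPM in VPZ-34A and 3.03, 4.74, 2.79 and 2.97 CPM in WT. VPZ-34A was below WT in all 4 rings, with a log2FC of -1.14 ± 0.23 (SE) and an adjusted p of 0.675. *Glyma.20G028350* had a log2FC of -1.75 and *Glyma.09G000651* one of -1.46, and neither has a name in the annotation used. *Glyma.09G000651* is the neighbour in ID order of *Glyma.09G000600*, a native *ZEP* gene that is described below.

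The thioredoxin homologue named by the study was unevenly expressed within WT. *Glyma.08G087100* is a homologue of *Trx o1*, a small redox protein of Arabidopsis mitochondria. WT held 12.1 and 9.10 CPM in rings 3 and 5, but 1.07 and 0.909 CPM in rings 6 and 8. VPZ-34A held 1.51, 0.915, 0.973 and 1.82 CPM in rings 3, 5, 6 and 8, and was lower than WT in 3 of 4 rings. VPZ-34A was thus far below WT in rings 3 and 5, close to it in ring 6, and above it in ring 8 by a ratio of 2.01. The log2FC was -1.68 ± 0.60 (SE; 95% interval -3.0 to -0.36), with an adjusted p of 1.0, and leaving out 1 ring moved it between -0.93 without ring 5 and -2.45 without ring 8. In the ambient rings the 4 WT libraries stood between 8.05 and 10.3 CPM and the 4 VPZ-34A libraries between 0.832 and 1.05 CPM, with no such gap within WT. At R5–R6 WT of ring 6 was again low, at 1.62 CPM, whereas WT of ring 8 was the highest at 15 CPM.

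**Figure D2:**
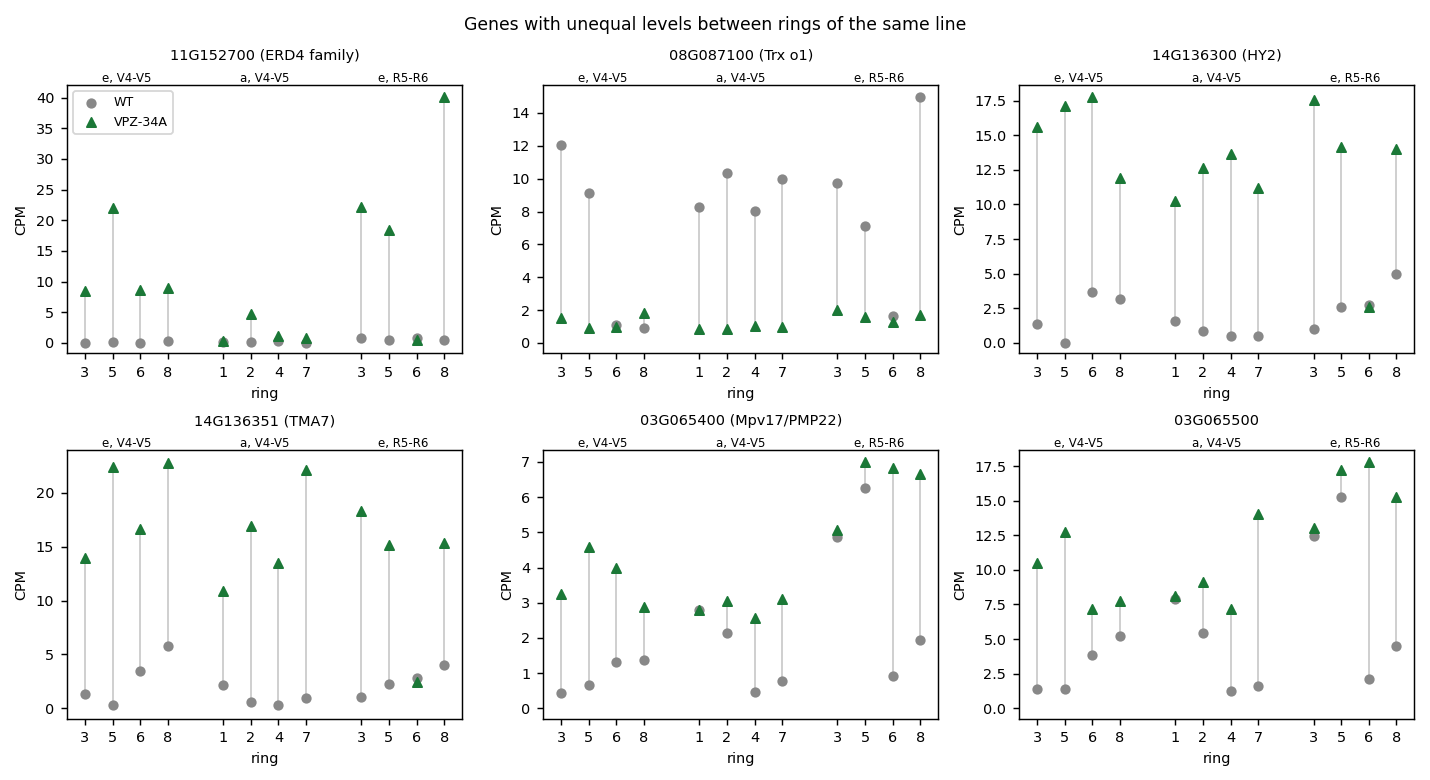
CPM (y axis, linear) by ring (x axis) of 6 soybean genes in the e[CO2] rings at V4–V5, the a[CO2] rings at V4–V5 and the e[CO2] rings at R5–R6, with WT as grey circles and VPZ-34A as green triangles joined within a ring. The *Trx o1* homologue *Glyma.08G087100* is near 1 CPM in WT of rings 6 and 8 at V4–V5, and the ERD4 family homologue *Glyma.11G152700* and the *HY2* homologue *Glyma.14G136300* are low in VPZ-34A of ring 6 at R5–R6.

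Similar unevenness marked other genes in the plot of levels by ring. *Glyma.11G152700*, the called ERD4 family homologue, was at 0.429 CPM in VPZ-34A of ring 6 at R5–R6, under the 0.812 CPM of WT there, while the other 3 VPZ-34A libraries held 18.4 to 40.1 CPM. The *HY2* homologue *Glyma.14G136300* was at 2.58 CPM in the same VPZ-34A library against 14 to 17.6 CPM in the others. On chromosome 3, *Glyma.03G065500* was low in WT of rings 3 and 5 at V4–V5 (1.39 and 1.38 CPM) and high in WT of the same rings at R5–R6 (12.4 and 15.3 CPM). Each library is a different pool of plants, and what sets these steps was not tested.

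The 7 native VPZ genes, the soybean counterparts of the transgenes, did not pass the test at e[CO2], and their intervals bound how far they could have moved. 2 of them are named *ZEP* by the text of the study. The other 5 were listed by ID, among them *Glyma.17G174500* as a further native *ZEP* gene. The abundant *Glyma.04G249700* (2834, 1865, 3058 and 3249 CPM in VPZ-34A; 2281, 2089, 2329 and 2221 CPM in WT) had a log2FC of 0.27 (95% interval -0.02 to 0.57). *Glyma.06G113200* had one of 0.14 (-0.11 to 0.38), *Glyma.17G174500* of -0.07 (-0.33 to 0.19), *Glyma.03G253500* of 0.07 (-0.17 to 0.31) and *Glyma.19G251000* of 0.02 (-0.26 to 0.29). For these 5 genes a doubling lay outside the interval.

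The genes named *ZEP* by the text of the study had wider intervals. They were far less abundant than *Glyma.17G174500*, which held 891 to 1239 CPM in VPZ-34A and 1036 to 1181 CPM in WT. *Glyma.09G000600* was at 1.43, 2.94, 2.48 and 1.49 CPM in VPZ-34A and at 2.83, 3.75, 3.40 and 2.52 CPM in WT. VPZ-34A lay below WT in each of the 4 rings, but the lines overlapped. Its log2FC of -0.62 had a 95% interval of -1.27 to 0.02 (adjusted p = 1.0). *Glyma.11G055700* had a log2FC of -0.11 (-0.53 to 0.30). The *ELIP1* homologues had log2FC of 0.18 (-0.21 to 0.56) for *Glyma.20G150600* and 0.24 (-0.12 to 0.60) for *Glyma.10G243800*.

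**Figure D3:**
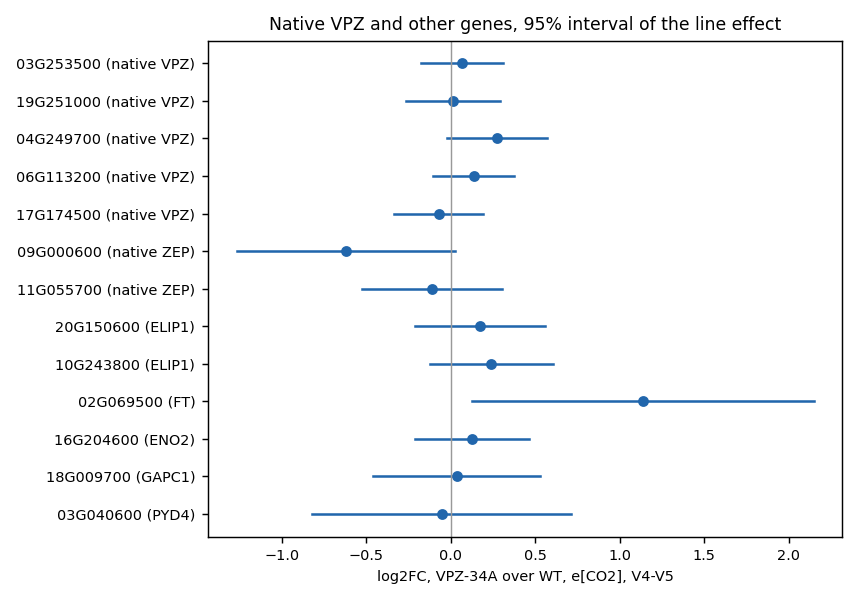
Log2FC of VPZ-34A over WT at e[CO2], V4–V5 (x axis; points), with its 95% confidence interval (bars), for the 7 native VPZ genes, 2 *ELIP1* homologues and 4 further genes that the study names. Of the 13 intervals, that of the *FT* homologue *Glyma.02G069500* (0.13 to 2.15) lies above 0 and the others include 0.

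Genes of flowering and carbon metabolism that the study names were not called at V4–V5 under e[CO2]. The study reports them as line effects fitted over both CO2 levels, the *FT* gene at V4–V5 and the carbon metabolism genes at R5–R6. Its calls are thus of another contrast and, for the carbon metabolism genes, of another stage. *Glyma.02G069500* (FT2c) belongs to the *FT* family, whose Arabidopsis member is the mobile signal that starts flowering. It was at 2.77, 2.61, 1.59 and 2.59 CPM in VPZ-34A and 1.10, 0.441, 1.12 and 1.86 CPM in WT, higher in 4 of 4 rings with an overlap between the lines. Its log2FC was 1.14 (95% interval 0.13 to 2.15), with an adjusted p of 1.0, and 0.77 without ring 5. Values were not whole in 7 of its 8 libraries, so that part of its reads were shared with other loci. The glycolytic homologues of enolase, *Glyma.16G204600* (*ENO2*), and of glyceraldehyde-3-phosphate dehydrogenase, *Glyma.18G009700* (*GAPC1*), had log2FC of 0.13 (-0.21 to 0.46) and 0.04 (-0.46 to 0.53). In the elevated rings at R5–R6, *Glyma.16G204600* was at 6.23 to 13.8 CPM in VPZ-34A and 12.2 to 49.7 CPM in WT. There *Glyma.18G009700* was at 3.40 to 18.4 CPM in VPZ-34A and 13.8 to 63.9 CPM in WT. The pyrimidine-catabolism homologue *Glyma.03G040600* (*PYD4*) had one of -0.05 (-0.82 to 0.71). The phosphoenolpyruvate carboxylase homologue *Glyma.01G091000* (*PPC4*) was at or below 0.203 CPM in all 8 libraries and was not tested.

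Of 13 gene lists searched by name in this annotation, 1 had 3 or more members, that of defence genes such as disease resistance and pathogenesis-related proteins. Of its 13 genes 10 were tested, 0 were called (0.0119% of all genes), 1 passed an unadjusted p under 0.05 (2.58% of all genes), and 8 had a log2FC above 0. Their median log2FC was 0.34, beside 0.00 for all genes tested. The gene that passed was *Glyma.06G265400*, a homologue of an immune receptor of the TIR-NBS-LRR class, with 7.16 ± 1.63 CPM in VPZ-34A and 3.95 ± 0.97 CPM in WT (SD, n = 4). Since the study listed these genes from its own contrasts of the same libraries, the list is not independent of its direction.

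The line effect at e[CO2] was then set beside that in the 4 ambient rings, which share no library with it. The question was whether CO2 changed the response of transcripts to the line. By the interaction term of the same fit, 0 genes were called (0%), the smallest adjusted p was 1.0, and 854 genes passed an unadjusted p under 0.05 (2.54%). DESeq2 called 1, *Glyma.14G062300*, with a log2FC difference of -2.73 and an adjusted p of 0.0275. The paper does report genes significant for this interaction at V4–V5, from ComBat-seq followed by limma. That procedure was run here for the line effect at e[CO2] only, so that the 2 results are not of like methods.

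At a[CO2], 6 genes were called (0.0178%), and 3 of them were among the 4 of e[CO2]. *Glyma.01G123700* was at 5.46 to 11.1 CPM in VPZ-34A and 0 in WT, *Glyma.12G111600* at 3.15 to 5.97 CPM and 0, and *Glyma.08G015500* at 2.85 to 3.72 CPM and 0.603 to 1.15 CPM. The log2FC of the *YDA* homologue was 1.97 at a[CO2] beside 1.92 at e[CO2]. The exception was the ERD4 family homologue *Glyma.11G152700*, at 0.238, 4.65, 1.15 and 0.799 CPM in VPZ-34A and 0.0525 to 0.263 CPM in WT of the ambient rings (log2FC 3.58, adjusted p = 0.352). The difference of its log2FC between CO2 levels was 2.62, with an unadjusted p of 0.0340 and an adjusted p of 1.0, and was not called.

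The *MKK6* homologue and the *BBM* homologue *Glyma.09G248200* were called at a[CO2] and not at e[CO2]. *Glyma.10G107500* had a log2FC of 1.65 at a[CO2] (adjusted p = 0.00398) beside 1.15 at e[CO2], and the difference of -0.50 had an unadjusted p of 0.0471 and an adjusted p of 1.0. *Glyma.09G248200* had 1.49, 4.11, 2.86 and 4.77 CPM in VPZ-34A and 0 counts in WT of the ambient rings (adjusted p = 0.0422), while the other *BBM* homologue, *Glyma.18G244600*, was not called there (adjusted p = 0.352). The difference of the effect on *Glyma.09G248200* between CO2 levels was not called (adjusted p = 1.0). The remaining gene was *Glyma.10G182900*, a homologue of *FIB4*, a lipid-associated fibrillin of plastids, with a log2FC of 2.49 at a[CO2] (adjusted p = 0.0358). At e[CO2] it was at 1.92 to 2.49 CPM in VPZ-34A and 1.20 to 2.40 CPM in WT, a log2FC of 0.41 (95% interval -0.20 to 1.02).

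That *FIB4* homologue had the smallest p of the interaction, with a difference of -2.08 (unadjusted p = 0.000492, adjusted p = 1.0). The next 4 were *Glyma.11G249900*, a homologue of the microtubule-bundling protein *MAP65-8*, *Glyma.19G179100*, *Glyma.02G129900* and *Glyma.05G085700*, a DUF579 protein. Each of these 4 was higher in VPZ-34A at a[CO2], with log2FC from 1.18 to 1.43. At e[CO2] their log2FC lay from -0.47 to -0.21. They were picked for this difference, none was called, and the values are a description.

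**Figure D4:**
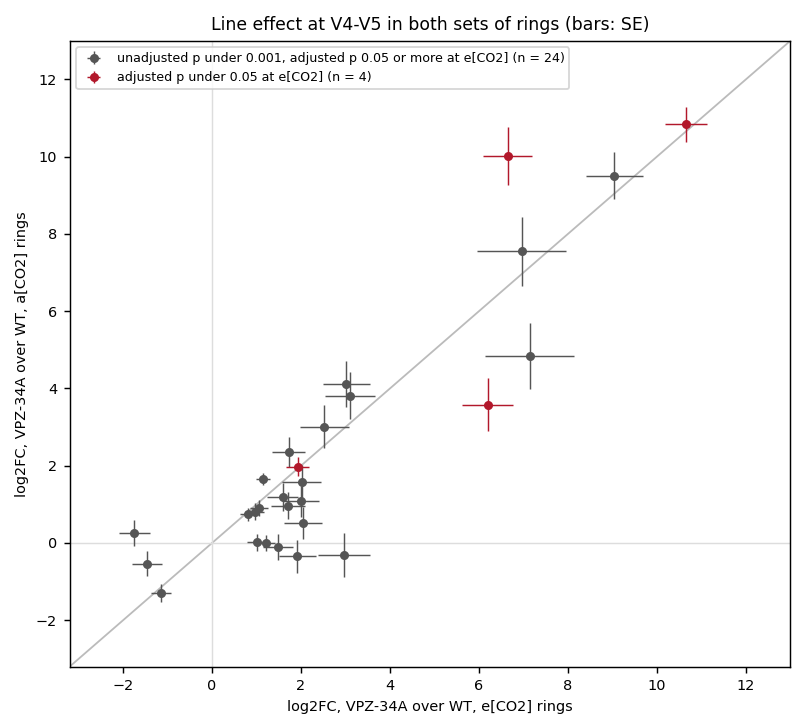
Log2FC of VPZ-34A over WT at V4–V5 in the e[CO2] rings (x axis) and the a[CO2] rings (y axis), with bars of 1 SE, for the 28 genes with an unadjusted p under 0.001 at e[CO2]; the 4 called genes are red and the grey diagonal marks equal effects. 23 of the 28 lie on the same side of 0 in both sets of rings, and 8 have an unadjusted p of 0.05 or more at a[CO2].

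Of the 28 genes with an unadjusted p under 0.001 at e[CO2], 23 had a log2FC of the same sign at a[CO2], and 20 of these passed an unadjusted p under 0.05 there (71.4%, beside 5.25% of all genes tested, 3.03% higher and 2.22% lower). The 28 were chosen by the e[CO2] contrast, but the filter and the dispersions came from a fit of all 16 V4–V5 libraries, so that the ambient libraries also entered the p-values that chose them and the 2 shares are not independent of that choice. Among the 20 were the *HY2* and TMA7 homologues, with log2FC of 3.81 for *Glyma.14G136300* and 4.11 for *Glyma.14G136351*, *SAP18* (2.35 for *Glyma.07G081500*), *AGB1* (-1.29 for *Glyma.04G013100*) and both *BBM* homologues. *Glyma.03G065400* had a log2FC of 1.08 there, with overlapping lines.

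The other 8 of the 28 had an unadjusted p of 0.05 or more at a[CO2], and 6 of them were higher in VPZ-34A at e[CO2]. These 6 carry no name in the annotation used. In 4 of the 6 the highest VPZ-34A library was that of ring 8, and in 5 of the 6 the lowest was that of ring 6. *Glyma.17G237100* was at 26.2, 10.8, 15.8 and 52.7 CPM in VPZ-34A and 8.21, 6.45, 10.8 and 14.9 CPM in WT, and *Glyma.14G176300* at 4.50, 3.21, 0.221 and 18.0 CPM in VPZ-34A and 0.528, 0.441, 0.254 and 1.32 CPM in WT. Thus 1 library gave most of the second difference, and the lines overlapped in both genes.

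**Figure D5:**
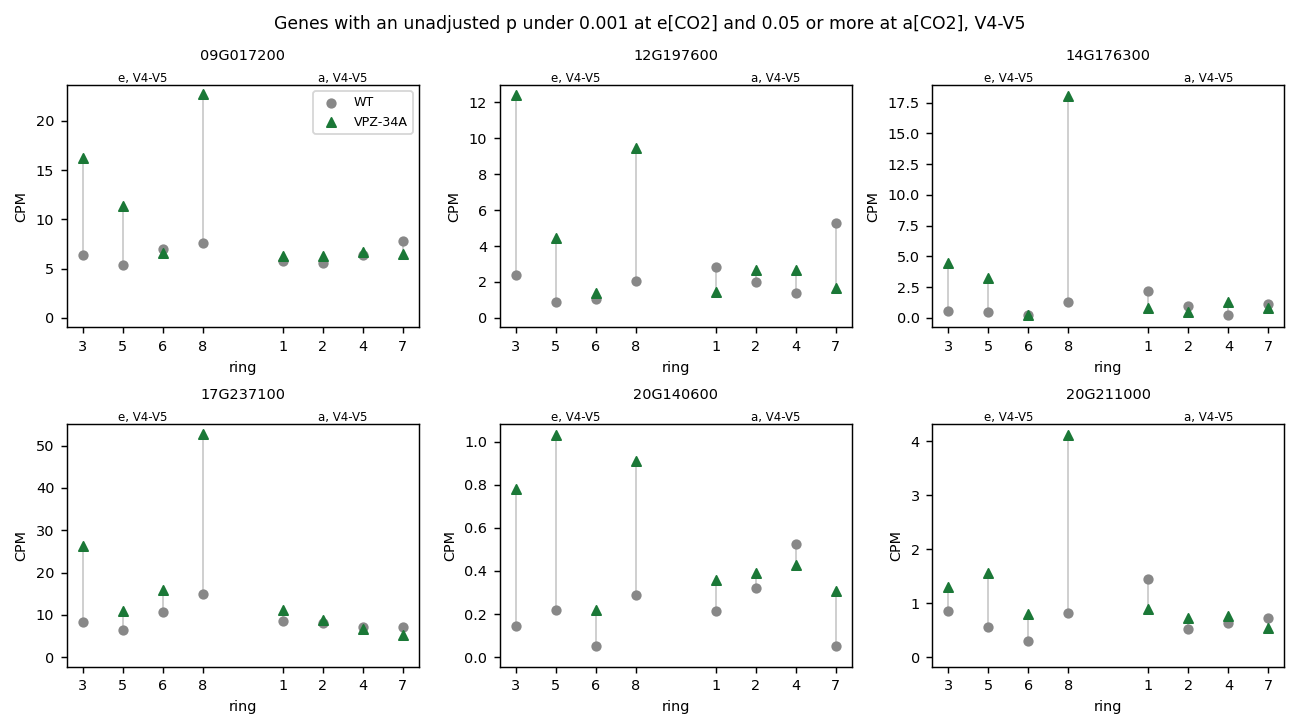
CPM (y axis, linear) by ring (x axis) in the e[CO2] and a[CO2] rings at V4–V5 of the 6 genes that were higher in VPZ-34A with an unadjusted p under 0.001 at e[CO2] and 0.05 or more at a[CO2], with WT as grey circles and VPZ-34A as green triangles joined within a ring. VPZ-34A of ring 8 is the highest library in 4 panels and VPZ-34A of ring 6 the lowest VPZ-34A library of the e[CO2] rings in 5.

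Genes whose lines did not overlap were counted as well. All 4 VPZ-34A libraries lay above all 4 WT libraries in 205 genes at e[CO2] (0.609%) and below them in 140 (0.416%), and at a[CO2] in 366 (1.09%) and 377 (1.12%). Of the 205, 24 were also apart in the same direction at a[CO2], which is 11.7% of that list and 6.56% of the 366. Of the 140, 5 were (3.57% and 1.33%). At R5–R6 in the elevated rings, 12 of the 24 and 2 of the 5 were apart in the same direction once more, beside 0.745% (higher) and 0.926% (lower) of all genes. The 12 higher genes were *Glyma.01G123700*, *Glyma.08G015500*, *Glyma.12G111600*, both *BBM* homologues, *MKK6*, *SAP18*, *CHR11*, the ubiquitin hydrolase homologue, the TIR-NBS-LRR homologue *Glyma.06G265400*, *Glyma.08G270500* and *Glyma.13G043700*. The 2 lower genes were the *AGB1* homologue *Glyma.04G013100* and *Glyma.09G000651*.

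The same rings at R5–R6 gave further values for the members. There, 6 genes were called among 33197 tested (0.0181%), and 2039 passed an unadjusted p under 0.05 (6.14%) and 69 one under 0.001 (0.208%). *Glyma.01G123700* was at 11.5 to 14 CPM in VPZ-34A with 1 count over the 4 WT libraries (adjusted p = 0.000149), and *Glyma.12G111600* at 7.86 to 10.7 CPM with none (adjusted p = 0.0166). The *YDA* homologue *Glyma.08G015500* was at 8.23, 9.50, 3.61 and 5.55 CPM in VPZ-34A and 3.53, 2.51, 1.97 and 2.05 CPM in WT, still apart, with a log2FC of 1.37 that was not called (adjusted p = 0.1065). Of the 28 genes, 26 were tested at R5–R6, 21 had the same sign there and 17 of these passed an unadjusted p under 0.05 (65.4%).

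Whether the line effect at e[CO2] differed between V4–V5 and R5–R6 was tested in 1 fit of all 32 libraries. Of 35636 genes tested, 1 was called (0.00281%), *Glyma.09G036900*, while 5.19% passed an unadjusted p under 0.05 and 0.0758% one under 0.001. At V4–V5 it was at 12.2, 9.26, 13.2 and 12.3 CPM in VPZ-34A and 9.03, 13.9, 15.8 and 17.7 CPM in WT, with overlapping lines (log2FC -0.24). In the R5–R6 libraries VPZ-34A held 3.96, 0.5, 0.215 and 0.978 CPM and WT held 0.0447, 0, 0 and 0.0513 CPM. The difference of the log2FC was -5.83 (adjusted p = 0.00570). At R5–R6 the counts were 75, 10, 5 and 25 in VPZ-34A and 1, 0, 0 and 1 in WT of rings 3, 5, 6 and 8. With so few WT counts the fitted difference is no measure of its size, and ring 3 held the most VPZ-34A counts. The call was lost without each of rings 3, 5 and 8 in turn, without the replicate block and by limma-voom.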

How the data were processed

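Leaf RNA of 32 samples was sequenced as stranded poly(A) libraries, single reads. Per the submitters' notes and the paper, the authors trimmed reads (Trimmomatic 0.39), aligned them with STAR 2.7.10a to Wm82.a4.v1 with the 3 transgenes added, and counted per gene with featureCounts (Subread 2.0.4). The deposited values are estimated counts, not normalised, since reads with several alignments were split fractionally (32.6% of nonzero values are not whole). The suffix of the gene IDs was removed, and 0 columns belonged to no mapped sample.

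Counts were rounded, filtered with filterByExpr, scaled by TMM and tested with edgeR 4.0.16 (R 4.3.3) on the 16 V4–V5 libraries, with the ring (8 levels) as block and a line effect per CO2 level. CPM use the TMM library sizes, SEs come from the test statistic, intervals are 95%, and floors of 3 counts (0.124 to 0.165 CPM in a WT library, 0.0362 CPM over the 4) cover counting error only. Gene names are Arabidopsis homologues given by the study. The RefSeq table at hand matched no gene ID, so the lists of marker and pathway genes by ID or RefSeq description were not used, and list names were searched in the study's annotation. The test was also run on simulated data, with effects set only in genes of higher counts and no differences between rings. That run does not cover genes near 0 in WT.

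Named genes were those called at e[CO2], the 5 with the smallest p of the interaction, those the paper names, and the transgenes and native VPZ genes. All genes with an unadjusted p under 0.001, those near 0 in WT, *Glyma.03G065500*, the *ELIP1*, *MAPKKK14* and TIR-NBS-LRR homologues, *Glyma.14G062300* and *Glyma.09G036900* were chosen after their values were seen. The members, lists and tests were chosen with earlier results of these data known.

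Lines were paired by the ring numbers of the labels, which name a shared plot. Libraries of a ring deviated from their group means with correlations of -0.045, 0.177, 0.357 and 0.437 in rings 3, 5, 6 and 8. The highest correlation between lines across different rings was 0.267 for rings 3 and 5, above their own values. It was 0.113 and 0.0307 for rings 6 and 8, below theirs. No library was a copy of another: chi-square per gene was 10.8 to 58.7 between libraries of a group. Alternatives were no block, the 8 elevated libraries alone, DESeq2 1.42.0, limma-voom (limma 3.58.1), RLE scaling, other filters, unrounded counts, ComBat-seq (sva 3.50.0) before limma-voom, and each ring left out.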

Additional observations from a re-analysis of the deposited data

Results flagged for a closer look

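In groups of 4 libraries, 58 genes were screened at e[CO2], V4–V5, for a library set apart from the other 3 (a gap beyond Dixon's 95% critical value). Chance gives this in about 1 group in 20, and 5 were found. Each line was screened apart, so that there were more groups than genes, and the 5 are not shown to exceed chance. VPZ-34A of ring 5 was high for *Glyma.11G152700*, at 22 CPM with the others between 8.52 and 8.92. WT of ring 8 held 0.165 CPM of *Glyma.12G111600* with the others at 0, a pattern that this rule always flags. VPZ-34A of ring 6 was low for the *FT* homologue *Glyma.02G069500*, at 1.59 CPM with the others between 2.59 and 2.77. VPZ-34A of ring 8 was low for *Glyma.02G139000*, at 2.30 CPM with the others between 2.81 and 2.84. WT of ring 5 was high for the *AGB1* homologue *Glyma.04G013100*, at 4.74 CPM with the others between 2.79 and 3.03.

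The line effect at e[CO2] on *Glyma.09G036900* differed between the stages by a test of the difference itself, with a log2FC at V4–V5 minus that at R5–R6 of -5.83.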

How the results depend on the processing

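The count of 4 genes called at e[CO2] was 6 without the replicate block, 6 with limma-voom or no filter, and 3 or 4 in the elevated libraries alone, with RLE size factors and unrounded. It was 17 with DESeq2, 0 with a minimum of 10 counts in each library (3 of the 4 genes were then not tested, and *Glyma.08G015500* was kept at an adjusted p of 0.199), and 40 with ComBat-seq before limma-voom, of which 17 had an absolute log2FC over 1 and 13 were lower in VPZ-34A. Leaving out 1 ring gave 2 to 5 (2 without ring 8). *Glyma.01G123700* and *Glyma.11G152700* were called in each of the 13 alternatives that kept them, *Glyma.12G111600* in 11 of 13, *Glyma.08G015500* in 6 of 14 and *Glyma.09G248200* in 6 of 13. At a[CO2] the 6 calls were 11 without the block, 27 with DESeq2, 11 without a filter and 1 with at least 10 counts. The interaction gave 1 call with DESeq2 and 0 in every other alternative run for it. ComBat-seq before limma-voom was not run for the interaction. At R5–R6 the 6 calls were 88 with DESeq2, 13 without a filter, 2 with at least 10 counts, and 5 to 97 with 1 ring left out (97 without ring 6). The stage difference, with 1 call, had 0 without the block, with limma-voom and with at least 10 counts, 7 with DESeq2 and 0 to 2 with 1 ring left out. With 1 ring left out, the log2FC of 4 genes that were not called changed sign: it ran from -0.30 to 0.0766 for *Glyma.03G040600* (above 0 without rings 3 and 8), from -0.0805 to 0.133 for *Glyma.18G009700* (below 0 without rings 6 and 8), from -0.0286 to 0.0601 for *Glyma.19G251000* (below 0 without ring 8) and from -0.33 to 0.0732 for *Glyma.11G055700* (above 0 without ring 6). A level under the floor of 3 counts in a WT library (0.124 to 0.165 CPM) could not be told from 0. Apart from those 3 untested genes, the cause of these changes was not tested.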
